A study of Mus musculus with 151 samples.

Results

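A list of 10 genes of the Notch pathway was followed through single hair cells of the mouse cochlea. The 10 genes were taken by symbol, and the rows of all 10 were found among the 55291 genes of the deposited count matrix: the receptors *Notch1* and *Notch2*, the ligands *Jag1*, *Jag2* and *Dll1*, the receptor-modifying enzyme gene *Lfng*, and the target genes *Hes1*, *Hes5*, *Hey1* and *Hey2*. The genes were listed as a pathway, with earlier results of these data known. In GRCm38, *Hes1* lies at chr16:30064384-30067796, *Hey1* at chr3:8663359-8667256, *Hey2* at chr10:30832359-30842801, *Jag1* at chr2:137081456-137116644, *Jag2* at chr12:112907819-112929776, *Dll1* at chr17:15367354-15376872, *Lfng* at chr5:140607320-140615545, *Notch1* at chr2:26457903-26516663 and *Notch2* at chr3:98013527-98150361 (GENCODE M21, all protein-coding).

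The 151 cells formed 3 groups, and each library held 1 manually picked Tdtomato+ cell. The 55 P14_WT IHCs and the 50 P30_WT IHCs were inner hair cells (IHCs) of vGlut3-P2A-iCreER/+; Ai9/+ mice at postnatal day 14 (P14) and day 30 (P30). The 46 P14_iOHCs were cells with features of outer hair cells (OHCs) that had started as IHCs, from vGlut3-P2A-iCreER/+; Tbx2 flox/-; Ai9/+ mice at P14. All mice were C57BL/6 mice of both sexes, carried the Cre knock-in and the Ai9 reporter, and received tamoxifen at P2 and P3. Cre was thus driven from the locus of vGlut3, also called *Slc17a8*, a gene of IHCs, and the *Tbx2* mutant mice carried 1 floxed allele, with exon 2 between the loxP sites, and 1 allele deleted in every cell. The iOHCs were picked by their smaller size and the larger Tdtomato+ cells were not, so the group was selected by size. No label ties a cell to an animal. Each group therefore counted as 1 sample, no difference between groups was tested, and every SD below is a spread between cells.

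Notch signaling passes between touching cells. A ligand of the Jagged or Delta family on one cell binds a Notch receptor on its neighbor, the receptor is cut by Adam proteases and by γ-secretase, and its freed intracellular domain enters the nucleus and joins the DNA-binding protein Rbpj to switch on genes such as *Hes1*, *Hes5*, *Hey1* and *Hey2*, which encode transcriptional repressors. In the developing cochlea, hair cells carry ligands such as Dll1 and Jag2, and the supporting cells around them carry Notch1 and express the Hes and Hey genes, which keeps the neighbors of a hair cell from becoming hair cells. *Jag1* and *Lfng* are known in this epithelium as genes of supporting cells, and *Hey2* as a gene of pillar cells.

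The sequence that Rbpj binds is commonly written GTGGGAA, and this word, read on either strand, was looked for in the 250 bases before the start sites that RefSeq gives in GRCm38.p6. Of the 10 genes, 8 were matched in the promoter table, with 9 start sites, since *Dll1* had a pair of them. *Hes1* and *Hey1* were not among the matched genes. The word was in 3 of the 9 windows, against 5.42% of all 32851 windows. The 3 windows, of 2 target genes and of the receptor modifier, are shown because they are the ones that hold the word. Capitals mark GTGGGAA or its reverse complement TTCCCAC, the *Hes5* window at chr4:154960673-154960922 (plus strand) holds both, and the windows of *Lfng*, at chr5:140607091-140607340 (plus strand), and *Hey2*, at chr10:30842784-30843033 (minus strand), hold 1 each:
Hes5: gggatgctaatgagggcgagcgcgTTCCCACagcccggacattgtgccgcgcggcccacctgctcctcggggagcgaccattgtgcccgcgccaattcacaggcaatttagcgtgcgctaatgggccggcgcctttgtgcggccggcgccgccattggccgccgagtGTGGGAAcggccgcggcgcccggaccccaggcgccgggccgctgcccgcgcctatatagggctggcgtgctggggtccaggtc
Lfng: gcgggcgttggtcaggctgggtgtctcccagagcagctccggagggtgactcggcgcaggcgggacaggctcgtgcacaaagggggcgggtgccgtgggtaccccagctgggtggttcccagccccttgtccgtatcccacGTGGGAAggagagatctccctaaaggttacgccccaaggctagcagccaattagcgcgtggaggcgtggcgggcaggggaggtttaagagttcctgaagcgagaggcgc
Hey2: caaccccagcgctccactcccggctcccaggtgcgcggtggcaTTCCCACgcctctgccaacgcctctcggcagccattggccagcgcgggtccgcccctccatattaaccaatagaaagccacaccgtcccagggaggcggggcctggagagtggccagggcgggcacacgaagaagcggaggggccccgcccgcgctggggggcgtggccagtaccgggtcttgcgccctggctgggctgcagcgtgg
A match is a description of the letters and not a site of binding.

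The totals per cell ranged from 4326416 to 25035444 counts. They fell into 51 cells under 11000000 counts and 100 cells over it, with 16 and 39 P14_WT IHCs, 12 and 34 P14_iOHCs, and 23 and 27 P30_WT IHCs. Levels are given as CPM, the gene's count per 1000000 counts of the cell, and 1 count was worth at most 0.231 CPM in any cell. The group means of the markers followed the labels: *Slc26a5*, the OHC motor protein prestin, averaged 1146 ± 685 CPM (SD, n = 46 cells) in P14_iOHCs and 0.15 CPM in P14_WT IHCs, and *Slc17a8* had 123 ± 194 CPM and 1230 ± 317 CPM (SD, n = 55 cells). *Tbx2* itself had 69.3 ± 87.4 CPM in P14_iOHCs and 260 ± 127 CPM in P14_WT IHCs. Counts over the whole gene also hold reads from outside the floxed exon, so they do not show in which cells the allele was lost. Single cells went against the labels in part. Of 46 P14_iOHCs, 1 (cell 1) had a sum of 5 IHC markers within the range of the P14_WT IHCs (21157 CPM, range 12813 to 28659), and 1 other (cell 44) had a sum of 5 OHC markers within theirs (1552 CPM, range 128 to 5949), so results are also given without these 2 cells.

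In P14_WT IHCs, the 10 genes were led by the ligand *Jag2*, and the other 9 had no count in most cells. The mean of *Jag2* was 53.8 ± 70.0 CPM (SD, n = 55 cells), with a lowest cell at 0, a median of 30.7 CPM and a highest cell at 394 CPM. It reached 10 CPM in 35 of 55 cells, and it held 66.5% of the summed mean level of the 10 genes. *Jag2* was the only one of the 10 with a count in most P14_WT IHCs (47 of 55). Per length of transcript, as TPM, which divides counts by exon length before scaling, the order of the mean levels was *Jag2* at 18.6 TPM, *Hes1* at 6.20 TPM, *Dll1* at 3.97 TPM, *Lfng* at 2.83 TPM and *Jag1* at 2.78 TPM, and the other 5 genes were at 1.91 TPM or less. The SD over cells was above the mean for each of the 10 genes in each group, and no neighbors in this order differed by more than their spread.

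In P30_WT IHCs, *Jag2* again led per length, at 12.3 TPM, and *Hey2* came second, at 9.46 TPM. *Dll1* followed at 4.72 TPM, *Hes1* at 4.64 TPM and *Jag1* at 4.50 TPM. In P14_iOHCs the order was another one. *Hes1* came first at 66.8 TPM, *Hey1* second at 23.7 TPM and *Jag1* next at 11.3 TPM, before *Jag2* at 9.97 TPM. *Notch2* was the lowest of the 10 in both P14 groups, and *Hey1* in P30_WT IHCs.

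**Figure D1:**
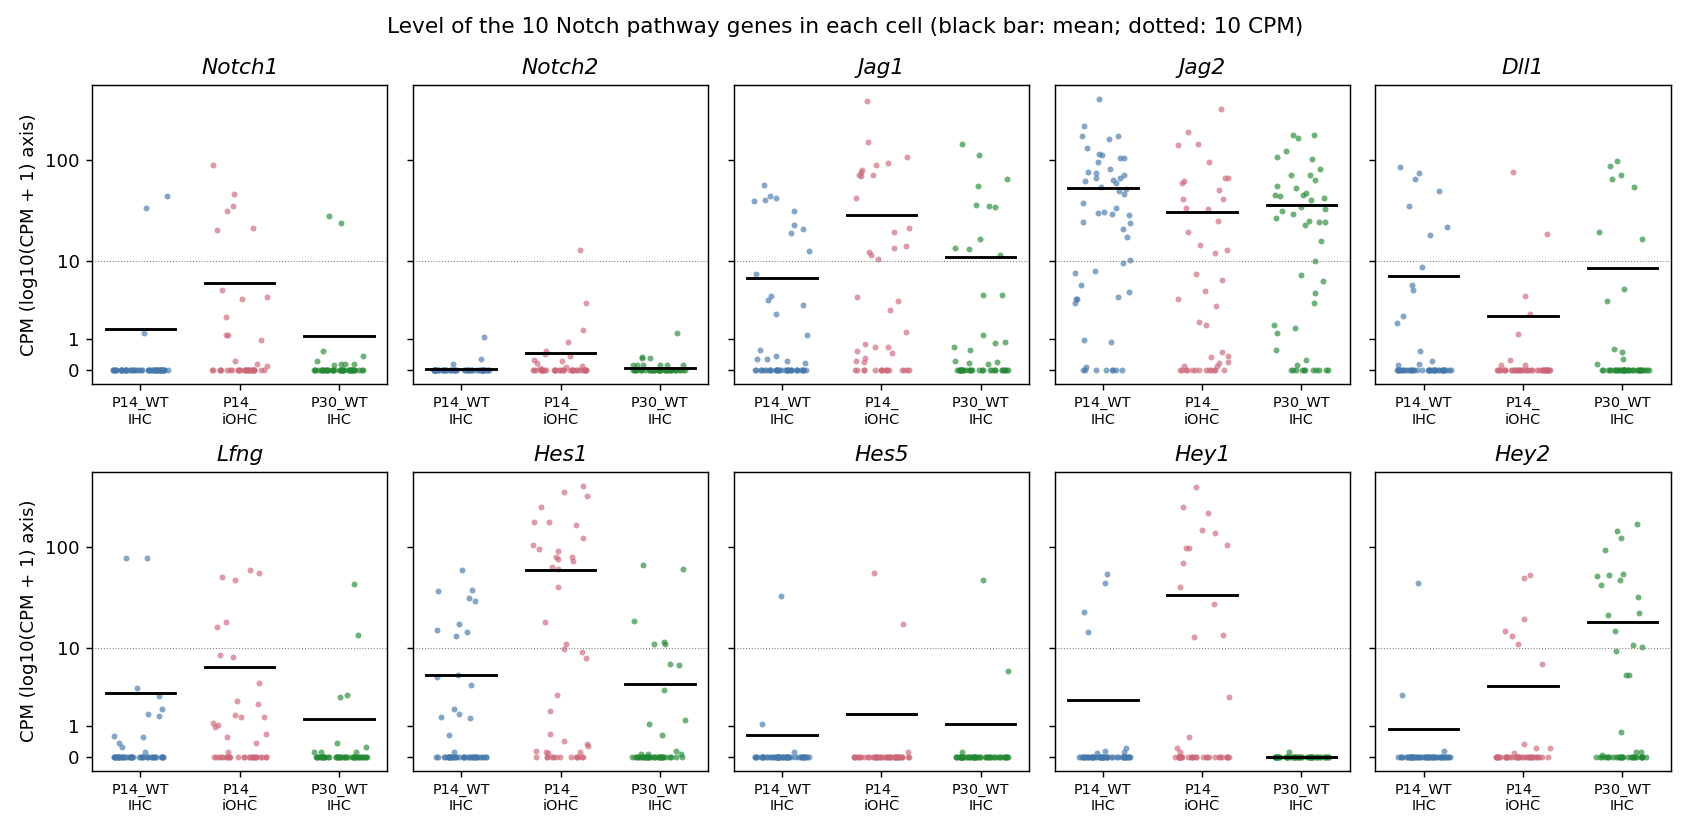
Level of each of the 10 genes in each cell, in CPM on a log10(CPM + 1) axis, for 55 P14_WT IHCs (blue), 46 P14_iOHCs (red) and 50 P30_WT IHCs (green); 1 point is 1 cell, black bars are means of CPM and the dotted line is 10 CPM. *Hes1*, *Hey1* and *Jag1* reach their highest levels in P14_iOHCs, *Hey2* in P30_WT IHCs, and *Jag2* is spread over a like range in all 3 groups.

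To ask which Notch genes differed between converted cells and the IHCs of the same age, the 46 P14_iOHCs were set against the 55 P14_WT IHCs. A gene was compared if 10 or more of these cells held 5 or more of its counts, which 9 of the 10 genes met and *Hes5* did not. Mean CPM was higher in P14_iOHCs by more than 4-fold (over 2 on the log2 scale) for 5 genes, *Hes1*, *Hey1*, *Hey2*, *Jag1* and *Notch2*, and lower by more than 4-fold for 0. Among all 13673 genes that passed this filter, 8.74% were past 4-fold higher and 5.12% past 4-fold lower. At 2-fold, 7 were higher, with *Lfng* and *Notch1* added, and 1, *Dll1*, lower, beside 18.4% and 13.2% of all genes. The median log2 ratio was 2.1 over the 9 genes and 0.08 over all genes that passed, a median that scaling moved to 0.21 (size factors of DESeq2) and to -0.07 (TPM). *Notch1*, *Notch2*, *Hey1* and *Hey2* had a count in 3, 3, 8 and 3 of the 55 P14_WT IHCs, so they could pass the filter only with their P14_iOHCs. *Dll1* had a count in 17.4% of the 46 P14_iOHCs, so it could pass only with its P14_WT IHCs, and its lower calls are descriptions too. The count of 5 and the median of 2.1, which is the ratio of *Hey2*, are descriptions of this list and no support for a direction. As a difference of mean log2(CPM + 1), which gives less weight to single high cells, *Hes1* was past 4-fold (2.21) and *Hey1* (1.49) and *Jag1* (1.26) were not. Without P14_iOHC cells 1 and 44, 6 genes were past 4-fold higher, with *Notch1* added at 2.06, and 1, *Dll1*, was lower. Among all 13600 genes that passed then, 1202 were higher and 756 lower. *Hes1* was then at 3.61, *Hey1* at 3.84, *Hey2* at 2.16, *Jag1* at 2.23, *Notch2* at 4.12, *Jag2* at -0.77 and *Lfng* at 1.07.

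Both repressor genes *Hes1* and *Hey1* stood out among the targets. *Hes1* ranged from 0 to 59.8 CPM in P14_WT IHCs, with a median of 0, and from 0 to 391 CPM in P14_iOHCs, with a median of 5.38 CPM. The ranges overlapped, but 17 of 46 P14_iOHCs were above the highest P14_WT IHC. The mean was 5.08 ± 12.1 CPM (SD, n = 55 cells) against 59.8 ± 97.0 CPM (SD, n = 46 cells), a log2 ratio of 3.56 (11.8-fold). A count of *Hes1* was found in 18 of 55 P14_WT IHCs (32.7%, 95% Clopper-Pearson interval 20.7 to 46.7%) and in 33 of 46 P14_iOHCs (71.7%, 56.5 to 84.0%). The read counts carry no molecular identifiers. The intervals treat cells as independent draws, so they cover counting error only and no spread between mice.

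*Hey1* was rarer and, where present, as high. It ranged from 0 to 54.8 CPM in P14_WT IHCs and from 0 to 375 CPM in P14_iOHCs, and the median was 0 in both groups. The mean was 2.50 ± 9.98 CPM (SD, n = 55 cells) and 34.6 ± 77.5 CPM (SD, n = 46 cells), a log2 ratio of 3.79 (13.8-fold). Most cells of both groups thus had no count of it, and 13 of 46 P14_iOHCs against 4 of 55 P14_WT IHCs were at 10 CPM or more. In these 13 cells the median was 98.8 CPM, and in the 20 P14_iOHCs with *Hes1* at 10 CPM or more it was 94.2 CPM of *Hes1*. The 2 genes were at that level together in 11 P14_iOHCs, which is 55% of the cells with *Hes1* and 84.6% of those with *Hey1*.

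*Hey2* and *Hes5* were low at P14. *Hey2* averaged 0.868 ± 6.03 CPM (SD, n = 55 cells) in P14_WT IHCs and 3.72 ± 11.3 CPM (SD, n = 46 cells) in P14_iOHCs, a log2 ratio of 2.1, and reached 10 CPM in 1 and 6 cells. A single P14_WT IHC held 84.0% of the 381 *Hey2* counts of its group, so the ratio turns on that cell: with the highest cell of each group left out it was 5.52, and with DESeq2 size factors it was 1.9, under 4-fold. *Hes5*, which lies at chr4:154960923-154962371 in a 2-exon gene model, had a count in 3 of 55 P14_WT IHCs and in 3 of 46 P14_iOHCs. In each of the 3 groups, 1 cell held at least 83.7% of the *Hes5* counts, and no ratio is read from it.

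Among the ligands, *Jag1* was past 4-fold higher, and *Jag2* and *Dll1* were within 4-fold. *Jag1* ranged from 0 to 57.9 CPM in P14_WT IHCs and from 0 to 376 CPM in P14_iOHCs, with medians of 0 and 0.737 CPM. The mean was 6.56 ± 14.2 CPM (SD, n = 55 cells) and 29.5 ± 64.0 CPM (SD, n = 46 cells), a log2 ratio of 2.17 (4.49-fold), and 10 P14_iOHCs were above the highest P14_WT IHC. A single cell carried 31.8% of the *Jag1* counts of the P14_iOHCs, and without the highest cell of each group the log2 ratio was 1.96, under 4-fold. *Jag2* ranged from 0 to 309 CPM in P14_iOHCs, with a median of 3.46 CPM and a mean of 31.7 ± 60.1 CPM, and the log2 ratio to P14_WT IHCs was -0.76. The 2 groups overlapped over nearly the whole range of *Jag2*, which reached 10 CPM in 19 of 46 P14_iOHCs (41.3%, 27 to 56.8%) and 35 of 55 P14_WT IHCs (63.6%, 49.6 to 76.2%). *Dll1* had a mean of 2.27 ± 11.6 CPM in P14_iOHCs and 6.92 ± 19.2 CPM in P14_WT IHCs, a log2 ratio of -1.61. A single P14_iOHC, cell 44, held 74.8% of the *Dll1* counts of its group, at 76.8 CPM, and had *Jag2* at 68.1 CPM. Without the highest cell of each group the log2 ratio of *Dll1* was -3.16, past 4-fold, and without cells 1 and 44 it was -3.47. *Dll1* could pass the filter only with its P14_WT IHCs, so these values are no support for a direction.

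The receptors were low in all groups. *Notch1* had a count in 3 of 55 P14_WT IHCs and 16 of 46 P14_iOHCs, and reached 10 CPM in 2 and 6 cells. Its mean was 1.46 ± 7.54 CPM and 5.82 ± 16.5 CPM, a log2 ratio of 1.99 that lay just under 4-fold. It was past it at 2.01 with TMM scaling and at 2.57 without the highest cell of each group. *Notch2* had a larger ratio, 4.05 on the log2 scale, at a far lower level: its means were 0.028 CPM and 0.457 CPM, and 1 P14_iOHC, at 13.2 CPM, held 46.1% of the 254 counts of its group. Exons of *Notch1* overlap those of 0610009E02Rik and Gm13568 on the other strand, and exons of *Notch2* those of Gm42820 on the same strand. The strand setting of the counting is not given in the sources used here, so reads of these pairs cannot be told apart. The same holds for *Dll1* with A930024N18Rik and *Hes5* with Gm20421, each on the other strand. *Lfng*, whose product adds sugars to Notch receptors and shifts their response to ligands, had a mean of 3.10 ± 14.8 CPM in P14_WT IHCs and 6.20 ± 15.5 CPM in P14_iOHCs, a log2 ratio of 1.00, with a count in 12 of 55 and 21 of 46 cells. Its highest P14_WT IHC, at 78.9 CPM, was above every P14_iOHC.

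**Figure D2:**
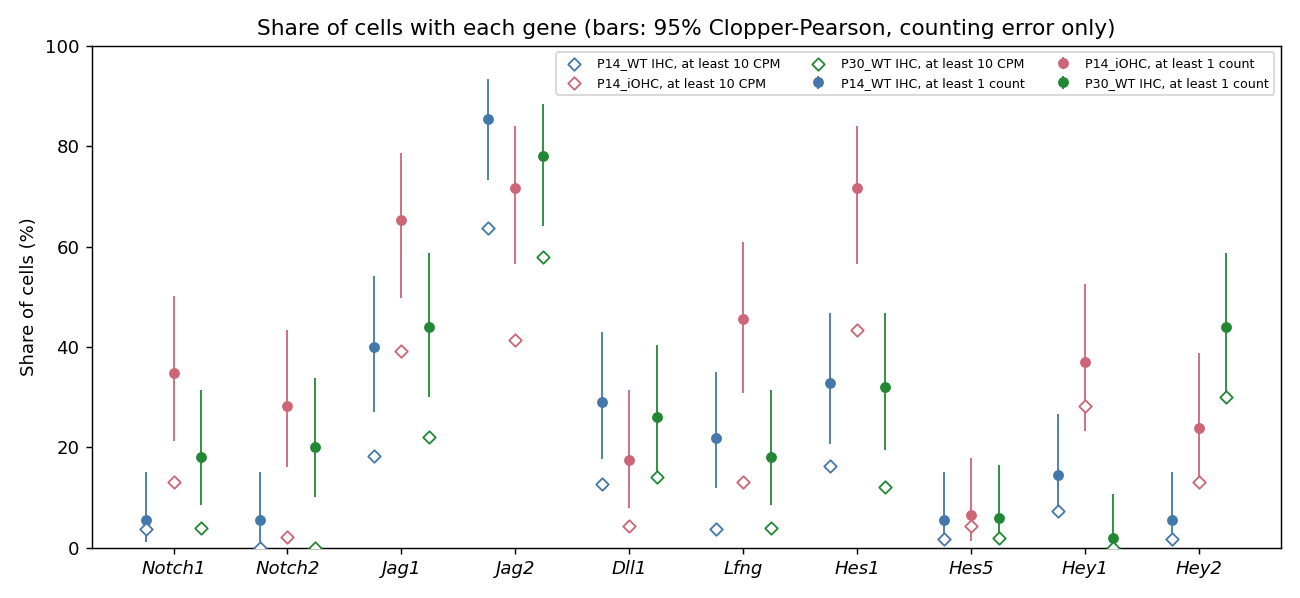
Share of cells (%) with at least 1 count of each gene (filled circles, with 95% Clopper-Pearson intervals for counting error) and with at least 10 CPM (open diamonds), for P14_WT IHCs (blue, n = 55), P14_iOHCs (red, n = 46) and P30_WT IHCs (green, n = 50). *Hes1* has a count in 71.7% of P14_iOHCs against 32.7% of P14_WT IHCs, and *Hey2* in 44% of P30_WT IHCs against 5.45% of P14_WT IHCs.

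Several of these genes are known from supporting cells, the cells that touch hair cells, and the markers of those cells moved with the group too. Of 18 supporting-cell markers, 16 passed the filter and 11 were past 4-fold higher in P14_iOHCs, among them *Epyc*, *Gjb2*, *Slc1a3* and *Sox10*, with 0 lower. *Cldn9* was taken out of the sum of the markers, after its level had been seen, since it had counts in each of the 151 cells. The summed level of the other 17 ranged from 0 to 2322 CPM in P14_WT IHCs (median 6.69), from 0 to 11633 CPM in P14_iOHCs (median 931) and from 0 to 865 CPM in P30_WT IHCs (median 57.6). *Prox1*, a marker of the pillar and Deiters' cells, was at 0 in all P14 cells. Of 7 mesenchyme markers, 3 passed and 1 (*Lum*) was past 4-fold higher, and their sum ranged up to 771 CPM in P14_WT IHCs and 4522 CPM in P14_iOHCs. Of 7 glia markers, 2 passed and 1 (*Mbp*) was. Of the 3 neuron, 4 blood and 7 hair cell markers that passed none was past 4-fold in either direction, and of 7 endothelium and 7 immune markers 1 each was lower (*Pecam1* and *C1qb*). Of 5 OHC markers 4 were past 4-fold higher and of 5 IHC markers 4 lower.

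Across the 46 P14_iOHCs, the summed supporting-cell markers went with *Lfng* (Spearman's rho 0.79), *Hes1* (0.75), *Jag1* (0.63), *Notch1* (0.58), *Hey1* (0.55), *Notch2* (0.51) and *Hey2* (0.38). For the ligands of hair cells the values were near 0, at -0.05 for *Jag2* and 0.01 for *Dll1*. The points are cells of 1 group that share library depth and the number of detected genes. With the latter the rho was 0.72 for *Hes1*, 0.57 for *Lfng*, 0.51 for *Jag1* and 0.48 for *Notch2*. It was 0.65 for *Notch1*, 0.62 for *Hey1* and 0.42 for *Hey2*, each above the rho of that gene with the markers. These values are descriptions, and cells are not replicates.

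**Figure D3:**
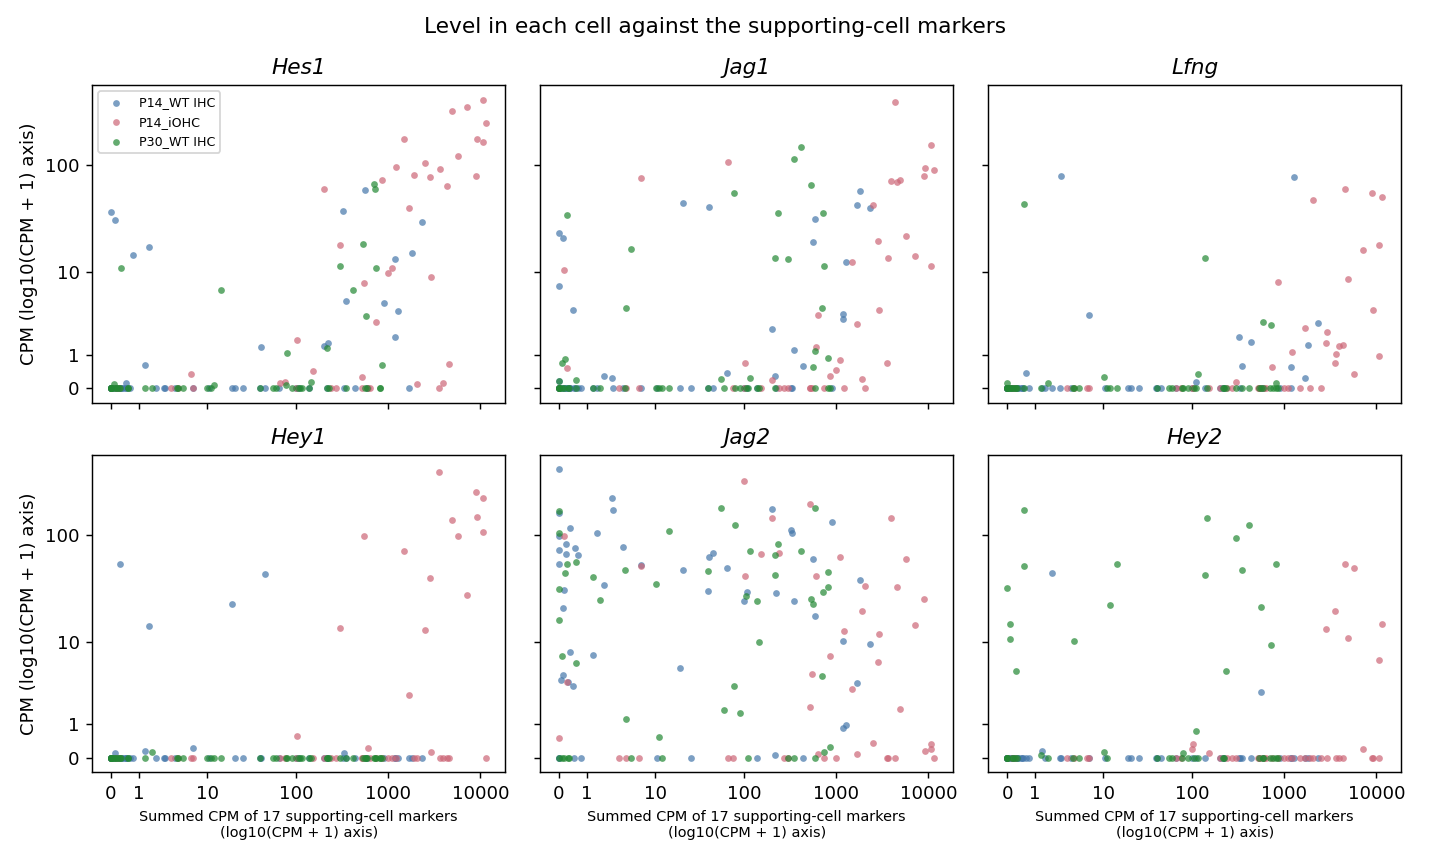
Level of 6 of the genes (CPM) against the summed CPM of 17 supporting-cell markers in the same cell, both on log10(CPM + 1) axes; 1 point is 1 cell, blue for P14_WT IHCs, red for P14_iOHCs and green for P30_WT IHCs. The P14_iOHCs with the most *Hes1*, *Jag1*, *Hey1* and *Lfng* lie at the right, *Jag2* shows no such slope, and the P30_WT IHCs with *Hey2* are spread over the whole axis.

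With the libraries above 1075 CPM of these markers left out (the 90th percentile of the P14_WT IHCs), 24 P14_iOHCs and 49 P14_WT IHCs stayed, and 4 of the 10 genes, *Jag1*, *Jag2*, *Dll1* and *Hes1*, passed the filter. None of the 10 was then called past 4-fold, beside 507 higher and 874 lower of all 11852 genes that passed. *Hes1* then averaged 7.35 ± 19 CPM (SD, n = 24 cells) in P14_iOHCs and 4.38 ± 12.2 CPM (SD, n = 49 cells) in P14_WT IHCs, a log2 ratio of 0.75 in place of 3.56. *Hey1* had 4.68 CPM and 2.81 CPM, a log2 ratio of 0.74, and *Jag1* 8.42 CPM and 4.08 CPM, a log2 ratio of 1.05. The hair cell ligands moved less, to -0.46 for *Jag2* and -1.10 for *Dll1*. Of the 20 P14_iOHCs with *Hes1* at 10 CPM or more, 17 were among the 22 left out, as were 11 of 13 with *Hey1*, 15 of 18 with *Jag1*, 6 of 6 with *Lfng*, 6 of 6 with *Notch1* and 6 of 6 with *Hey2*. *Notch1* had 6 counts in 3 of the 24 P14_iOHCs that stayed and 608 in 2 of the 49 P14_WT IHCs. *Hey2* had 9 counts in 3 and 381 in 3 of these cells. In the P14_WT IHCs, 1 cell held most of the counts of each gene, at 34.4 CPM of *Notch1* and 44.7 CPM of *Hey2*, so no direction is read from them. A lower limit on the markers left few cells. With all cells above the P14_WT IHC median of the sum left out, 7 P14_iOHCs and 28 P14_WT IHCs stayed, and of the 10 genes only *Jag2* passed the filter. The log2 ratio was 2.63 for *Jag1*, -6.22 for *Hes1* and -6.16 for *Hey1*. The value of *Jag1* rests mostly on 1 P14_iOHC, cell 46, at 76.9 CPM. *Hey1* had no count in the 7 P14_iOHCs, so its value is set by a floor of 3 counts. No direction is read from these ratios. The part of the markers in the result was not tested beyond this, and in single picked cells RNA from an attached cell and RNA of the cell itself cannot be told apart.

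**Figure D4:**
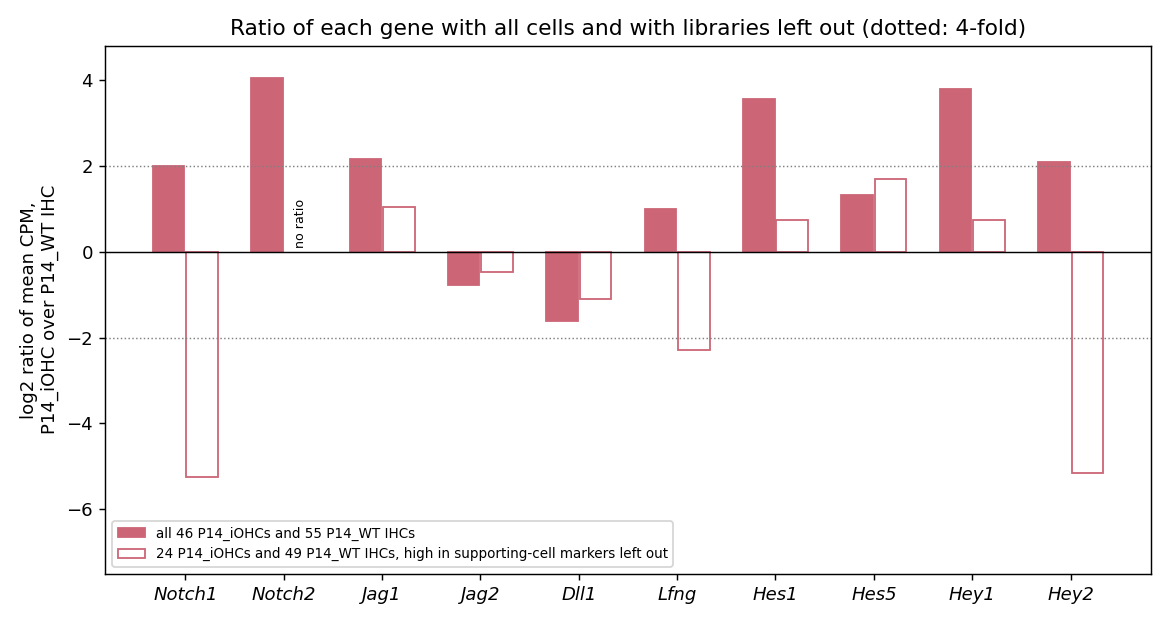
Log2 ratio of mean CPM, P14_iOHC over P14_WT IHC, for the 10 genes with all cells (filled bars) and without the libraries above 1075 CPM of supporting-cell markers (open bars); dotted lines are 4-fold. Without those libraries *Hes1*, *Hey1* and *Jag1* are at 0.75, 0.74 and 1.05, only *Jag1*, *Jag2*, *Dll1* and *Hes1* passed the filter, and *Notch2* has no ratio since 2 counts were left in each group.

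The total count per cell was a further difference between libraries, so the comparison was also made in the 2 sets of totals. In the cells at 11000000 counts or more (34 P14_iOHCs and 39 P14_WT IHCs), 7 of the 10 genes passed the filter. Of these, *Hes1*, *Hey1* and *Jag1* were past 4-fold higher, with 68.3 ± 97.0 CPM against 6.69 ± 13.9 CPM for *Hes1*, and 0 were lower. Among all 12745 genes that passed there, 1096 were higher and 618 lower. In the cells under it (12 and 16), the mean of *Hes1* was 35.8 ± 97.1 CPM against 1.15 ± 4.42 CPM, and of *Hey1* 34.7 ± 107 CPM against 2.38 ± 6.62 CPM. Only 1 of the 10 genes passed the filter in this smaller set, and 0 were called, beside 339 higher and 465 lower of all 8542 genes that passed.

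The genes of the list were also counted within each cell. A P14_iOHC had a median of 2 of the 10 genes at 10 CPM or more, and a P14_WT IHC and a P30_WT IHC 1 each. At least 4 of the 10 were at that level in 11 of 46 P14_iOHCs, 1 of 55 P14_WT IHCs and 2 of 50 P30_WT IHCs, and none was in 10, 12 and 7 cells. *Jag1* and *Hes1* were at 10 CPM together in 13 P14_iOHCs, and all 6 with *Notch1* at that level had *Hey1* too. The 11, 13 and 6 P14_iOHCs of these counts were all above 1075 CPM of the summed supporting-cell markers, the lowest (cell 35) at 1479 CPM. None of them was thus among the P14_iOHCs kept under that limit. These counts describe cells of 1 sample a group.

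To ask whether the genes differed between younger and adult IHCs, the 50 P30_WT IHCs were compared with the same 55 P14_WT IHCs, so the 2 comparisons share their control cells. Of the 10 genes, 6 passed the filter, 1 (*Hey2*) was past 4-fold higher and 0 were lower. Among all 12946 genes that passed, 2.26% were past 4-fold higher and 3.06% lower. At 2-fold, 1 gene of the list, *Lfng*, was lower and *Hey2* alone higher, beside 10.4% and 8.83% of all genes. *Lfng* had a count in 18% of the 50 P30_WT IHCs, so it could pass the filter only with its P14_WT IHCs. With the size factors of DESeq2 in place of totals, 492 genes were higher and 275 lower, against 292 and 396, and the median of all genes moved from -0.03 to 0.33 on the log2 scale. *Hey2* stayed past 4-fold under both.

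*Hey2* was the 1 gene of the list past 4-fold at P30. It had a count in 3 P14_WT IHCs, so it could pass the filter only with its P30_WT IHCs, and the call is a description and no support for a direction. It ranged from 0 to 167 CPM in P30_WT IHCs, with a median of 0, and from 0 to 44.7 CPM in P14_WT IHCs. The mean was 18.3 ± 38.2 CPM (SD, n = 50 cells) against 0.868 ± 6.03 CPM (SD, n = 55 cells), a log2 ratio of 4.40 (21.1-fold), and 1.69 as a difference of mean log2(CPM + 1), under 4-fold. The ranges overlapped, and 8 of 50 P30_WT IHCs were above the highest P14_WT IHC. A count was found in 22 of 50 P30_WT IHCs (44%, 30.0 to 58.7%) and in 3 of 55 P14_WT IHCs (5.45%, 1.14 to 15.1%), and 15 of 50 against 1 of 55 cells reached 10 CPM. *Hey2* thus had a count in some P30_WT IHCs and not in others. Its level had a Spearman's rho of 0.06 with the summed supporting-cell markers over the 50 cells, and 0 of the 50 were above 1075 CPM of those markers. Of the 18 markers, 11 passed at P30 against P14, 0 higher and 1 (*Ednrb*) lower. In the 27 P30_WT IHCs with totals of 11000000 or more the mean was 20.8 ± 42 CPM, and in the 23 under it 15.3 ± 33.8 CPM, against 0.075 CPM and 2.80 CPM in the P14_WT IHCs of each set.

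*Hey1* went the other way at P30 in its counts. It had 1 count in 1 of 50 P30_WT IHCs and 2224 counts in 8 of 55 P14_WT IHCs, and it did not pass the filter, since a few cells carried all of it. The ligands and *Hes1* stayed within 4-fold. *Jag1* had a mean of 11.2 ± 28.6 CPM at P30, a log2 ratio of 0.77, *Jag2* 36.7 ± 46.6 CPM and -0.55, and *Dll1* 8.58 ± 23.7 CPM and 0.31. The log2 ratio of *Hes1* was -0.34 and that of *Lfng* -1.26, which became -2.03, past 4-fold, without the highest cell of each group. Since *Lfng* could pass the filter only with its P14_WT IHCs, its values are descriptions and no support for a direction. *Notch1*, *Notch2* and *Hes5* did not pass, with a count in 9, 10 and 3 of 50 P30_WT IHCs. Of those 9 cells with *Notch1*, 8 had totals under 11000000 counts, and so had 8 of the 10 cells with *Notch2*.

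The other parts of the pathway were read from 46 further genes. In P14_iOHCs against P14_WT IHCs, 34 of the 46 passed the filter, 1 was past 4-fold higher and 1 lower, beside 8.74% and 5.12% of all genes, and their median log2 ratio was 0.10, beside 0.08 over all genes. At P30 against P14, 33 passed, 0 were higher and 1 was lower, beside 2.26% and 3.06% of all genes, with a median of -0.27 beside -0.03.

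The 2 genes past 4-fold in P14_iOHCs both encode ligand-like proteins outside the Jagged and Delta families. *Dner*, a transmembrane protein with EGF-like repeats, ranged from 4.76 to 1667 CPM in P14_iOHCs, with a median of 318 CPM, and from 0 to 240 CPM in P14_WT IHCs, with a median of 17.7 CPM. It had a count in all 46 P14_iOHCs, and the means were 353 ± 268 CPM and 45.8 ± 60.1 CPM, a log2 ratio of 2.95 (7.72-fold). Unlike *Hes1*, *Dner* kept its ratio without the libraries high in supporting-cell markers, at 409 ± 320 CPM (SD, n = 24 cells) against 45.4 ± 56.0 CPM (SD, n = 49 cells), 3.17 on the log2 scale. *Dlk2*, a relative of Delta that lacks the domain by which Delta binds Notch, lay the other way: it had a count in 44 of 55 P14_WT IHCs and 3 of 46 P14_iOHCs, with means of 31.8 ± 37.4 CPM and 1.05 ± 5.59 CPM, a log2 ratio of -4.91. With 3 P14_iOHCs, *Dlk2* could pass the filter only with its P14_WT IHCs. Without the same libraries its ratio was -4.10. In P30_WT IHCs *Dlk2* had 13.0 ± 21 CPM and *Dner* 59.7 ± 66.8 CPM.

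*Ncstn*, *Psen2* and *Adam10* had a count in most cells of each group. *Ncstn* and *Psen2*, subunits of γ-secretase, had means of 73.6 and 22.4 CPM in P14_WT IHCs and 71.7 and 26.6 CPM in P14_iOHCs, with log2 ratios of -0.04 and 0.25. *Adam10*, a protease that cuts the bound receptor, had 15.7 ± 22.2 CPM in P14_WT IHCs and 58.9 ± 85.4 CPM in P14_iOHCs, a log2 ratio of 1.91, and without the libraries high in supporting-cell markers 15.4 CPM and 16.9 CPM, a ratio of 0.14. *Rbpj* was low, with 8.10 ± 29.8 CPM in P14_WT IHCs, 12.4 ± 19.4 CPM in P14_iOHCs and 6.51 ± 20.8 CPM in P30_WT IHCs, and a count in 23 of 55, 26 of 46 and 18 of 50 cells. *Notch3*, a further receptor, had a count in 6 of 55 P14_WT IHCs, 11 of 46 P14_iOHCs and 4 of 50 P30_WT IHCs. *Hes6*, a relative of *Hes1* that counters it and is known from developing hair cells, had 20.3 ± 29.7 CPM, 19.6 ± 29.6 CPM and 5.75 ± 14.2 CPM. *Maml3*, a coactivator of the Rbpj complex, was the gene past 4-fold at P30, with 0.77 ± 3.99 CPM against 6.63 ± 17.7 CPM at P14, a log2 ratio of -3.10, and a count in 7 of 50 against 19 of 55 cells. With 7 P30_WT IHCs, *Maml3* could pass the filter only with its P14_WT IHCs.

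**Figure D5:**
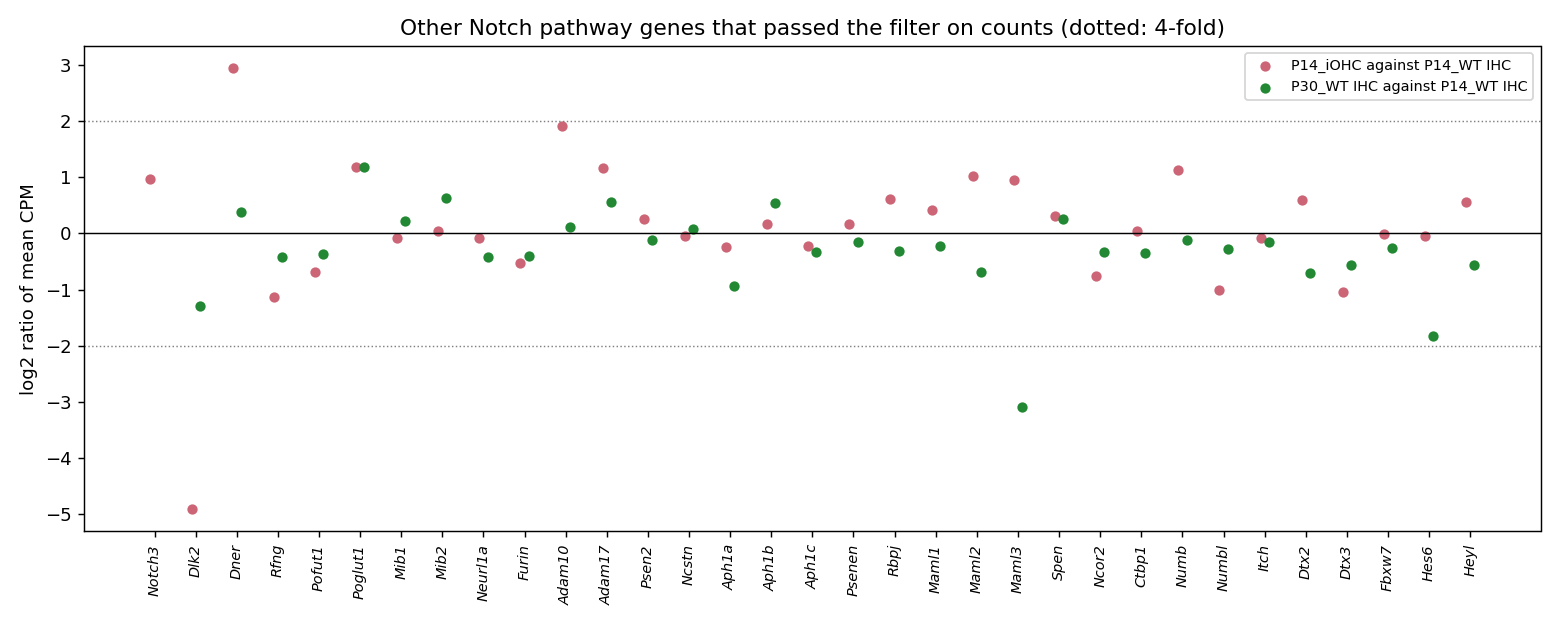
Log2 ratio of mean CPM for other Notch pathway genes that passed the filter on counts, in P14_iOHCs (red) and P30_WT IHCs (green), each over the same P14_WT IHCs; dotted lines are 4-fold. *Dner* (2.95) and *Dlk2* (-4.91) lie outside the lines in P14_iOHCs and *Maml3* (-3.10) at P30.

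The genes whose levels over cells were most like a gene of the list were sought in each P14 group for genes with a count in at least 50% of its cells. Over the 46 P14_iOHCs and 8511 genes, those most like *Hes1* by Spearman's rho were *Zfp36l1* (0.81), *Dbi* (0.81) and *Dhrs7* (0.78), and those most like *Jag1* were *Cfl1* (0.74), *Epcam* (0.72) and *Slc44a1* (0.71). The genes most like *Jag2* were *Fxr1* (0.49), *Ppp2r2c* (0.48) and *Maz* (0.48). In the 55 P14_WT IHCs its closest genes, over 8180, were *Mrpl38*, *Tmem238* and *Dnmbp*, at 0.47. Over the 46 P14_iOHCs, the rho with the summed supporting-cell markers was 0.75 for *Hes1*, 0.63 for *Jag1* and -0.05 for *Jag2*. The cells of a group also share their depth and their number of detected genes, and the values are descriptions.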

How the data were processed

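Single cells were amplified with a Smart-Seq HT kit. Per the labels and the study's methods, the authors checked reads with FastQC 0.11.9, trimmed them with Trimmomatic 0.39, aligned them to GRCm38 with HISAT2 2.1.0 and counted them per gene with HTSeq 0.10.0. The authors deposited the raw counts, not normalized, with 1 column per cell. The authors' TPM values (StringTie 1.3.5) were not used.

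CPM was computed here from the counts and each cell's total, and TPM from union exon lengths of GENCODE M21 (53292 of 55291 genes), with Python 3.11.15, numpy 2.4.6, pandas 2.3.3 and scipy 1.17.1. Groups followed the labels. Since no label names an animal, mean CPM was compared without a test, for each gene with 5 or more counts in 10 or more of the compared cells, and 4-fold, the fold limit of the study, was the call. The script for the ratio was tested on simulated data. Shares have 95% Clopper-Pearson intervals. Scaling alternatives used edgeR 4.0.16 (TMM) and DESeq2 1.42.0 (size factors) in R 4.3.3, and thinning used 4000000 counts. Depth limits low genes: 3 counts were 0.12 to 0.693 CPM. In a ratio of means, a group at 0 was set to a floor of 3 counts over the summed totals of its cells.

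The genes, marker lists and pathway list were chosen with earlier results of these data known. Named genes are the 10 genes, *Rbpj*, *Adam10*, *Psen2*, *Ncstn*, *Notch3* and *Hes6*, further pathway genes past 4-fold with a count in 20% or more of the higher group's cells, and the 3 genes most like a gene with a count in at least 50% of the cells of a P14 group, and 1 further gene of this rule is not reported here. *Epyc*, *Gjb2*, *Slc1a3*, *Sox10*, *Cldn9*, *Prox1* and the other markers were named after their values were seen. Leaving out cells by the marker sum without *Cldn9*, or P14_iOHCs with hair cell marker sums in the P14_WT IHC range, was added after seeing the data.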

Additional observations from a re-analysis of the deposited data

How the results depend on the processing

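No paired analysis was possible because the results come from no test, and the cell numbers in the labels only name cells. Of the alternatives, scaling by TMM (6 genes past 4-fold, with *Notch1*), DESeq2 size factors (4, without *Hey2*), TPM (5) and summed counts (5) kept the count of the list in P14_iOHCs within 1.5 times of 5. The ratio of *Jag1* stayed above 0 and that of *Jag2* below 0 under each of the 16 alternatives for P14_iOHCs and 15 for P30, and the ratios ran from 0.16 to 2.63 for *Jag1* and from -1.64 to -0.13 for *Jag2*. Among these, the 2-fold threshold and the setting with no filter leave a ratio as it is, so they could not change its sign. The 2.63 of *Jag1* is from the cells up to the P14_WT IHC median of the markers, where *Jag1* did not pass the filter and no direction is read. The alternatives share cells, so a kept sign is a description.

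In P14_iOHCs against P14_WT IHCs, the 5 higher genes became 1 (*Hes1*) on mean log2(CPM + 1), 0 in cells with totals under 11000000, 3 in those of 11000000 or more, and 0 with cells high in supporting-cell markers left out, with or without *Cldn9* in the sum and also at the P14_WT IHC median (7 and 28 cells left). The 0 lower genes became 1 (*Dll1*) without the highest cell of each gene, without P14_iOHC cells 1 and 44, and at 2-fold. With fewer cells fewer genes pass the filter, 1 in the smaller set of totals. Leaving out cells high in the markers turned the ratio of *Hey2* to -5.22 with and -5.17 without *Cldn9*, and that of *Nrarp*, a feedback gene that did not pass the filter, to -3.39 and -3.30. At the P14_WT IHC median *Hes1* was at -6.22, *Hey1* at -6.16, *Hey2* at -5.52 and *Nrarp* at -2.08, while *Jag1* was at 2.63. None of these genes passed the filter at that limit. *Dll3* and *Hes7*, which did not pass either, turned to 1.03 and -0.69 without the highest cell, and *Dll4* and *Hes7* to -0.70 and -0.61 with totals under 11000000. *Dll3* had 0 counts in P14_iOHCs, so its 1.03 is set by the floor of 3 counts given to a group at 0. It shows no higher level in P14_iOHCs. *Neurl1b*, which did not pass either, turned to -2.33 without cells 1 and 44. Beyond the floor, the cause of these turns was not tested.

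The other pathway genes, 1 higher and 1 lower, became 3 higher with totals of 11000000 or more, 2 higher without cells over 3 median absolute deviations, 2 lower without cells high in the markers under either sum, 2 higher and 5 lower at the median, 6 higher and 4 lower at 2-fold, and 8 higher and 3 lower with no filter. Over all genes, 1195 higher and 700 lower became 379 and 435 on mean log2(CPM + 1), 339 and 465 with totals under 11000000, 2517 and 1809 at 2-fold, and 5121 and 4096 with no filter. Higher genes numbered 540 and 507 without cells high in the markers with and without *Cldn9*, and 351, with 1209 lower, at the median.

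In P30_WT IHCs against P14_WT IHCs, *Hey2* was lost, leaving 0 higher genes, on mean log2(CPM + 1), with totals under 11000000 and at the marker median (19 and 28 cells). The 0 lower genes became 1 without the highest cell and at 2-fold (*Lfng*) and with no filter (*Hey1*). The other pathway genes, 0 higher and 1 lower, became 2 lower without the highest cell, without cells over 3 median absolute deviations and at the marker median, 0 lower on mean log2(CPM + 1), 1 higher and 2 lower with totals under 11000000, 1 higher and 3 lower at 2-fold, and 1 higher and 6 lower with no filter. Without the highest cell *Dll3* turned to 2.20, *Dll4* to 0.81 and *Nrarp* to 0.37, and with totals under 11000000 *Dll3* turned to 4.65. In P30_WT IHCs *Nrarp* had 0 counts and *Dll4* 1, so their values without the highest cell are set by the floor of 3 counts. Over all genes, 292 higher and 396 lower became 492 higher with DESeq2 size factors, 672 lower without the highest cell, 35 and 204 on mean log2(CPM + 1), 1143 and 1341 at 2-fold, and 3340 and 3912 with no filter. The number of genes of the list at 10 CPM in at least 25% of P14_WT IHCs was 1, and 3 at 1 CPM.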
